A study of Rattus norvegicus with 20 samples.

Results

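The genes described here encode the proteins that carry calcium into and out of the neurone and its stores, together with the channels of the pacemaker current. They are the pore (α1), α2δ, β and γ subunits of the voltage-gated calcium channels, the ryanodine and IP3 receptors of the endoplasmic reticulum (ER), the calcium pumps of the ER (SERCA), plasma membrane (PMCA) and secretory pathway (SPCA), and the hyperpolarisation-activated HCN channels. Members were chosen by gene symbol alone, and 44 of the 32402 genes in the tables matched. The symbol Atp2a1 was not analysed here. A mean normalized count of at least 10 was reached by 40 members in the tables of the ageing and aged dehydration comparisons, and by 39 in that of the adult dehydration comparison. Cacna1s, Cacna2d4, Cacng1 and Atp2c2 lay under this minimum in every table. Over the rats of the ageing table the members just inside the minimum were Cacna1f (mean 16.6) and Cacng6 (19.3), and those just outside were Cacna2d4 (7.88) and Cacna1s (7.17).

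The supraoptic nucleus (SON) is a hypothalamic nucleus of magnocellular neurones (MCNs) that make vasopressin and oxytocin. It was punched from male Wistar Han rats that were adult (3 months) or aged (18 months), and that were either euhydrated (EH, water freely available) or dehydrated (DH, water removed). The labels give DH as 2 days and the study's methods as 72 hours. Each of the 4 groups held 5 rats, with a poly(A) RNA library from each, and the values are read counts divided by a size factor for each library. Sums of these normalized counts ranged from 25931931 to 28689164 per library over the tables of the DH comparisons, and the members together took 0.381% to 0.404% of them as group means. Whole reads were recovered for the adult DH table, at 24268398 to 28491926 per library. Those of the other tables are not given here. By the study's methods, rats of both ages were handled side by side, from dissection to RNA sequencing, and the adult data had been published before. The 2 hormone genes that define MCNs, Avp and Oxt, were present in every rat, with summed normalized counts of 193899 to 366536 in adult and 247080 to 473621 in aged rats. Punches also hold glia, vessels and neighbouring neurones, and fewer cells of a type and less RNA per cell cannot be told apart in such bulk samples. The aged EH rat with replicate number 4 lay with the 5 aged DH rats, and apart from the other 4 aged EH rats by more than 0.5 on the log2 scale, in 8 genes. All of these were higher, and Th, Prok2 and the member Cacna1f were among them. Such genes numbered 0 or 1 for 3 of the other aged EH rats and 7 for the rat with replicate number 6, of which 6 were lower. Slc17a7 and Neurod6, used below as markers of forebrain glutamatergic neurones, were among those lower in rat 6. Without aged EH rat 4, 9 of 40 members were called in aged DH and 0 with ageing. The share of all genes called in these fits is not given here, so these counts have no background.

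Voltage-gated calcium channels open when the membrane is depolarised. L-, N-, P/Q- and R-type channels need strong depolarisation and serve hormone release, somatodendritic calcium entry and gene regulation, whereas T-type channels open near the resting potential and help to shape burst firing. Ryanodine receptors amplify calcium entry by releasing calcium from the ER, IP3 receptors release it on stimulation of receptors coupled to phospholipase C, and the pumps restore the resting level. HCN channels open on hyperpolarisation and carry a depolarising inward current that supports pacemaking and the after-discharge activity of MCNs.

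Sequences before the transcription start were taken from RefSeq (assembly GRCr8), where 30 of the 44 members had an entry, with 34 starts in all. The 250 bases before the start had a median GC content of 71.8% over these 34 starts, against 51.2% over all 33469 entries. Shown are those of Ryr1 and Ryr2, which fell in the same comparison, of Cacna2d1, which rose there, and of Cacna1f, which had few counts in adult rats and rose the most in aged DH. For Cacna2d1, the sequence of 1 of its 3 starts is given, the only one of the 3 with TGACG in the window. Capitals mark the letters TGACG, the core of the cyclic AMP response element, and the sequences run 5′ to 3′ towards the start.
Ryr1, chr1:93551306-93551555, minus strand: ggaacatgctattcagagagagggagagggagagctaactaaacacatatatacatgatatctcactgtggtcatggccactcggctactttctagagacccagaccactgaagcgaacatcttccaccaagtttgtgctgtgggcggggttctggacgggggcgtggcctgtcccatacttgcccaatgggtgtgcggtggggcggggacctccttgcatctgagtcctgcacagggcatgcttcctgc
Ryr2, chr17:63081277-63081526, plus strand: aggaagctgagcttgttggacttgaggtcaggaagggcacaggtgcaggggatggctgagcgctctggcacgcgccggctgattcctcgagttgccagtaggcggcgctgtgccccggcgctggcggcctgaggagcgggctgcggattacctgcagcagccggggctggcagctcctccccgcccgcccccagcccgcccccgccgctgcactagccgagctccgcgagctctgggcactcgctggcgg
Cacna2d1, chr4:20330148-20330397, minus strand: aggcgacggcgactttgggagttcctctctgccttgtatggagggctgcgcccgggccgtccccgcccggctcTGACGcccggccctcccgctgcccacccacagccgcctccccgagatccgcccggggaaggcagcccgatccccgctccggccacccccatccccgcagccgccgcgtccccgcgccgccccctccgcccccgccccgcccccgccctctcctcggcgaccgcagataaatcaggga
Cacna1f, chrX:17568309-17568558, minus strand: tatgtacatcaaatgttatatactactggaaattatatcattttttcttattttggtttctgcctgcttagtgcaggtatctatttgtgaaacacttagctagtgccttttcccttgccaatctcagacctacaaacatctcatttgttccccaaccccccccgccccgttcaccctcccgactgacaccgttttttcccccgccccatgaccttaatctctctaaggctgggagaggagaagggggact
The full element TGACGTCA and the AP-1 motif TGANTCA, searched on both strands, were in 0 of the 34 member sequences, against 1.587% and 6.34% of all entries. The core, which the full element also contains, was before 4 of the 34 starts, namely those of Cacna1b, Cacna1c, Cacna2d1 and Cacnb2, against 18.217% of all entries. For Ryr1, Ryr2 and Cacna1f none of the 3 motifs was in the window.

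More of these genes were differentially expressed with DH than with age. Between adult DH and adult EH, 9 of 39 members were differentially expressed genes (DEGs) by limma with a Benjamini-Hochberg adjusted p under 0.05, which is 23.1%, where 12.7% of all 15280 genes tested were DEGs. Of these, 3 were higher in DH (background 7.67%) and 6 were lower (background 4.99%). Between aged DH and aged EH, 10 of 40 members were DEGs, which is 25.0%, where the background was 7.29%. Here 3 were higher (background 4.05%) and 7 lower (background 3.25%). Between aged EH and adult EH, 0 of 40 members were DEGs, where the background was 5.99% (2.69% higher and 3.3% lower). At an unadjusted p under 0.05 there were 4 of 40 members with ageing, against 20.3% of all genes, 18 of 39 with adult DH, against 26.9%, and 18 of 40 with aged DH, against 21.4%. The number of members called in adult DH was 5 when adult DH rat 3 or adult EH rat 1, 4 or 5 was left out. For those fits the share of all genes called is not given here. The median LFC (log2 fold change) of the members was 0.01 with ageing, -0.01 with adult DH and -0.08 with aged DH, and 29 of the 40 were lower in aged DH. Groups did not overlap for 7 members in adult DH (background 10.9%), 6 in aged DH (7.05%) and 2 with ageing (6.38%).

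**Figure D1:**
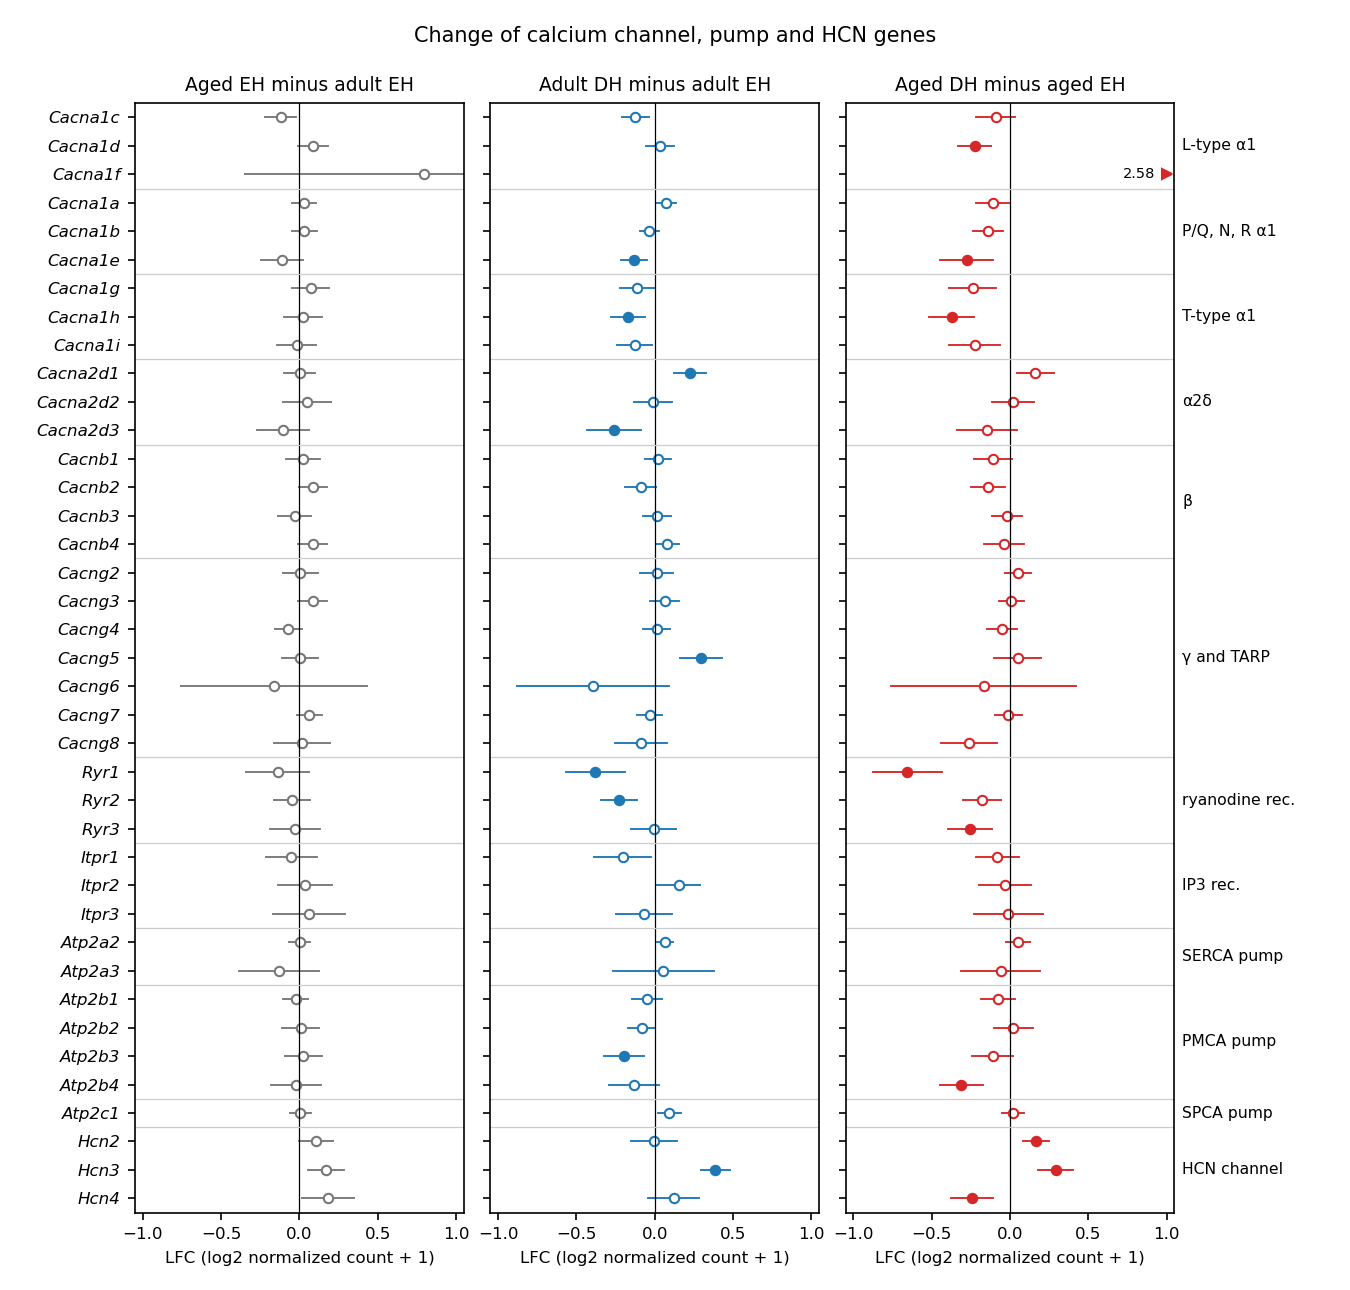
LFC of 39 members on the log2 scale (x axis) by role (y axis) for ageing, adult DH and aged DH, with points for the estimate, lines for the 95% interval, filled points for DEGs (limma, adjusted p under 0.05) and n = 5 rats per group. No filled point is seen with ageing, whereas 9 are seen with adult DH and 10 with aged DH, where the arrowhead gives Cacna1f, which was not tested in adult DH.

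The pore subunits were mostly lower in DH. Of 8 α1 genes tested, 6 were lower in adult DH and 2 of these were DEGs (background 4.99% lower). In aged DH 8 of 9 were lower and 3 of these were DEGs (background 3.25% lower), as was Cacna1f, the one that was higher. The medians over all genes tested were -0.01 in adult DH and 0.00 in aged DH. All 3 T-type genes were lower in both DH comparisons. Cacna1h, which encodes Cav3.2, had normalized counts of 1634, 1394, 1552, 1567 and 1431 in adult EH, in order of replicate number, and 1448, 1302, 1271, 1304 and 1397 in adult DH. The adult groups overlapped. In aged rats the counts of Cacna1h were 1630.1, 1445, 1565, 1625 and 1744 in EH and 1183, 1284, 1172, 1116 and 1444 in DH, and every DH rat was under every EH rat. Cacna1h fell in adult DH (LFC -0.17 ± 0.05 (SE), adjusted p = 0.0417) and in aged DH (LFC -0.37 ± 0.07 (SE), adjusted p = 0.00429). The adult call was lost when any of 6 rats was left out (adult DH 2, 3 and 4, adult EH 1, 4 and 5), with an adjusted p of up to 0.102, whereas the aged call remained without any single rat. In RefSeq GRCr8 Cacna1h overlaps Tpsg1, and overlapping reads cannot be assigned. The other T-type genes were not DEGs. In adult DH the LFC was -0.11 (adjusted p = 0.161) for Cacna1g (Cav3.1) and -0.13 (adjusted p = 0.131) for Cacna1i (Cav3.3). In aged DH it was -0.24 (adjusted p = 0.0519) and -0.23 (adjusted p = 0.0867).

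Cacna1e, which encodes the R-type pore Cav2.3, fell at both ages. Its counts were 1939 to 2123 in adult EH and 1759 to 1980.1 in adult DH, and 1727 to 2208 in aged EH and 1371 to 1784 in aged DH. The groups overlapped at both ages, with LFC -0.13 ± 0.04 (SE), adjusted p = 0.0441 in adult rats and LFC -0.28 ± 0.08 (SE), adjusted p = 0.0484 in aged rats. Both calls lay close to the threshold. The adult call held only without adult DH rat 4 or adult EH rat 2, and the aged call only without aged DH rat 6, aged EH rat 2 or aged EH rat 4. When any other rat was left out, the adjusted p reached up to 0.104 and 0.117. The P/Q-type pore Cacna1a and the N-type pore Cacna1b, which carry the calcium that triggers release at nerve terminals, were not DEGs. Their LFCs were 0.07 (adjusted p = 0.147) and -0.03 (adjusted p = 0.457) in adult DH, and -0.11 (adjusted p = 0.209) and -0.14 (adjusted p = 0.079) in aged DH.

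Of the L-type pores, Cacna1d (Cav1.3) had counts of 1515, 1421, 1554, 1651 and 1534 in aged EH and 1278, 1267, 1408, 1245 and 1373 in aged DH. Every aged DH rat was under every aged EH rat, and Cacna1d fell (LFC -0.22 ± 0.05 (SE), adjusted p = 0.0124), a call that remained without any single rat. In adult rats its counts were 1392, 1318, 1457, 1438 and 1339 in EH and 1451, 1354, 1456, 1367 and 1483 in DH. The adult groups overlapped (LFC 0.03 ± 0.04 (SE), adjusted p = 0.649, 95% interval -0.05 to 0.12). Cacna1c (Cav1.2) was not a DEG, with an LFC of -0.12 (adjusted p = 0.0552) in adult DH and -0.09 (adjusted p = 0.408) in aged DH.

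**Figure D2:**
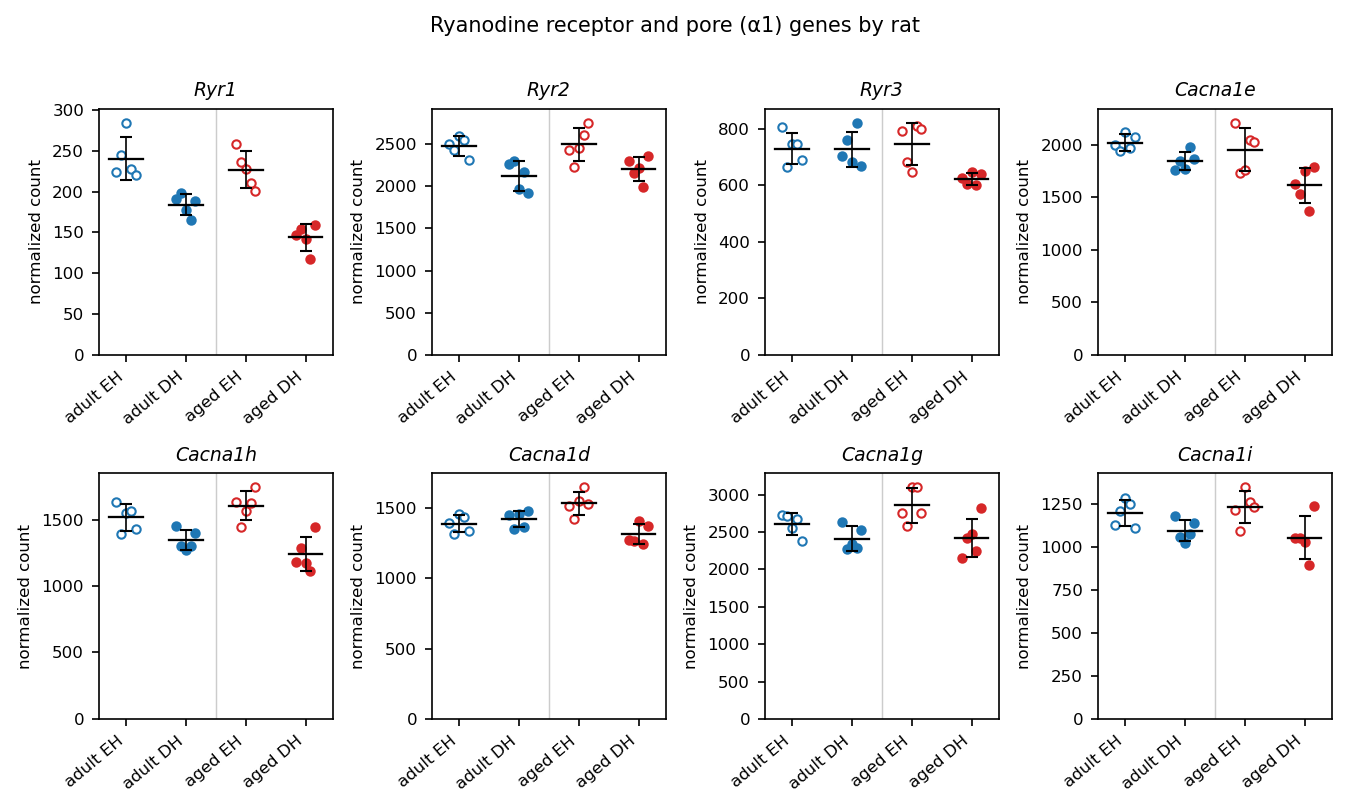
Normalized counts (y axis, from 0) of the ryanodine receptor genes and 5 pore genes in each rat of the 4 groups (x axis; open points EH, filled points DH), with the mean and SD of 5 rats; adult and aged values were scaled in separate tables. Ryr1 lies between 220.0 and 285 in adult EH and between 117 and 159 in aged DH, and Cacna1d is lower in all 5 aged DH rats than in all 5 aged EH rats.

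Cacna1f, which encodes the L-type pore Cav1.4 known from photoreceptors, had the largest LFC of any member. Its counts were 5.77, 14.3, 4.64, 11.1 and 7.72 in adult EH and 6.77, 7.25, 11.8, 5.61 and 10.7 in adult DH, where its mean was under the minimum and it was not tested. In aged EH they were 9.22, 9.99, 80.4, 8.70 and 11.9, and in aged DH 91.3, 107, 112, 104 and 73.6. Adult rats of both groups and 4 of 5 aged EH rats thus had low counts, whereas all 5 aged DH rats and the aged EH rat with replicate number 4 had high counts. Cacna1f rose in aged DH (LFC 2.58 ± 0.47 (SE), adjusted p = 0.00429). Without aged EH rat 4 the LFC was 3.16 and the adjusted p 2.68e-06. The aged response less the adult response was LFC 2.58 ± 0.61 (SE), adjusted p = 0.191. Without aged EH rat 4 it was 3.16 with an adjusted p of 0.000674. Cacna1f was then the only gene of the whole table called for this difference. That rat was singled out by its own Cacna1f count, so both adjusted p-values without it are descriptions only. Without it, Cacna1f reached the minimum only through its aged DH counts. The same rat also lay towards the aged DH rats in Th, which encodes tyrosine hydroxylase, with 3663 against 1470.3 to 2319 in the other aged EH rats and 3696 to 5528 in aged DH. Th and Prok2 rose in adult DH as well, by LFCs of 1.62 (adjusted p = 0.000174) and 2.17 (adjusted p = 7.06e-05), whereas Cacna1f had means of 8.71 ± 3.97 in adult EH and 8.41 ± 2.65 in adult DH (SD, n = 5). Th and Prok2 were chosen after their values were seen.

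Cacna1f overlaps a long non-coding RNA gene, LOC120099258, on the opposite strand in RefSeq GRCr8. The libraries were stranded, but the strand setting of the counting is not given in the sources used here, so reads of the pair cannot be told apart. The protein-coding genes on either side, chosen after their values were seen, were Syp, which encodes synaptophysin, and Ccdc22. In aged DH their LFCs were 0.00 (adjusted p = 0.984) and 0.14 (adjusted p = 0.197). In aged EH rat 4 Syp had 26414 and Ccdc22 718, against 24599 to 25317 and 630 to 711 in the other aged EH rats, so that neither showed the many-fold difference of Cacna1f.

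The auxiliary subunits set the surface level and kinetics of the pore. Of 14 auxiliary genes tested, 3 were DEGs in adult DH (background 12.7%) and 0 in aged DH (background 7.29%). In aged DH 3 of the 14 (Cacna2d1, Cacng8 and Cacnb2) had an unadjusted p under 0.05, against 21.4% of all genes, which is near this share. Cacna2d1 encodes α2δ-1, a subunit that promotes trafficking of the pore to the membrane and binds gabapentin. Its counts were 2547, 2352, 2653, 2570.3 and 2743 in adult EH and 2939.9, 2754, 3087, 3163 and 3102 in adult DH. Every adult DH rat was above every adult EH rat, and Cacna2d1 rose (LFC 0.23 ± 0.05 (SE), adjusted p = 0.00625). In aged rats the counts were 2637, 2573, 2869, 2796 and 2522 in EH and 2913, 2824, 3449.7, 2853 and 2957 in DH. The aged groups overlapped, with LFC 0.16 ± 0.06 (SE), adjusted p = 0.0981 and a 95% interval 0.04 to 0.28, which holds the adult estimate. Cacna2d3 was lower in adult DH, with 956 to 1288 against 1259 to 1550.3 in EH (LFC -0.26 ± 0.08 (SE), adjusted p = 0.0493). This call held only without adult DH rat 2 or 4, and the adjusted p reached up to 0.118 when any other rat was left out. It was also lost by edgeR on recovered reads (adjusted p = 0.0532). In aged DH the LFC of Cacna2d3 was -0.14 (adjusted p = 0.389), and that of Cacna2d2 was -0.01 (adjusted p = 0.938) in adult and 0.02 (adjusted p = 0.909) in aged DH.

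Of the γ subunits and transmembrane AMPA receptor regulatory proteins, which mostly act on glutamate receptors, Cacng5 rose in adult DH. Its counts were 538, 579, 550.0, 591 and 585 in adult EH and 783, 609, 738, 697 and 675 in adult DH. No adult DH rat reached down to the adult EH rats (LFC 0.30 ± 0.06 (SE), adjusted p = 0.00792), and the call remained without any single rat. In aged rats the counts were 634, 587, 567, 629 and 551 in EH and 691, 618, 531, 589.8 and 645 in DH, and the groups overlapped (LFC 0.05 ± 0.07 (SE), adjusted p = 0.759, 95% interval -0.10 to 0.20). Cacng6 had the lowest LFC of any member in adult DH, and few counts. They were 16.4, 21.9, 21.3, 21.3 and 14.5 in adult EH and 18.4, 10.4, 13.7, 12.3 and 17.0 in adult DH, and the groups overlapped (LFC -0.39 ± 0.22 (SE), adjusted p = 0.284). The other γ genes (Cacng2, Cacng3, Cacng4, Cacng7 and Cacng8) were DEGs in neither comparison, with LFCs from -0.09 to 0.06 in adult DH and from -0.26 to 0.05 in aged DH. The 4 β genes, Cacnb1 to Cacnb4, whose products chaperone the pore, were not DEGs, with LFCs from -0.09 to 0.08 in adult DH and from -0.14 to -0.02 in aged DH.

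**Figure D3:**
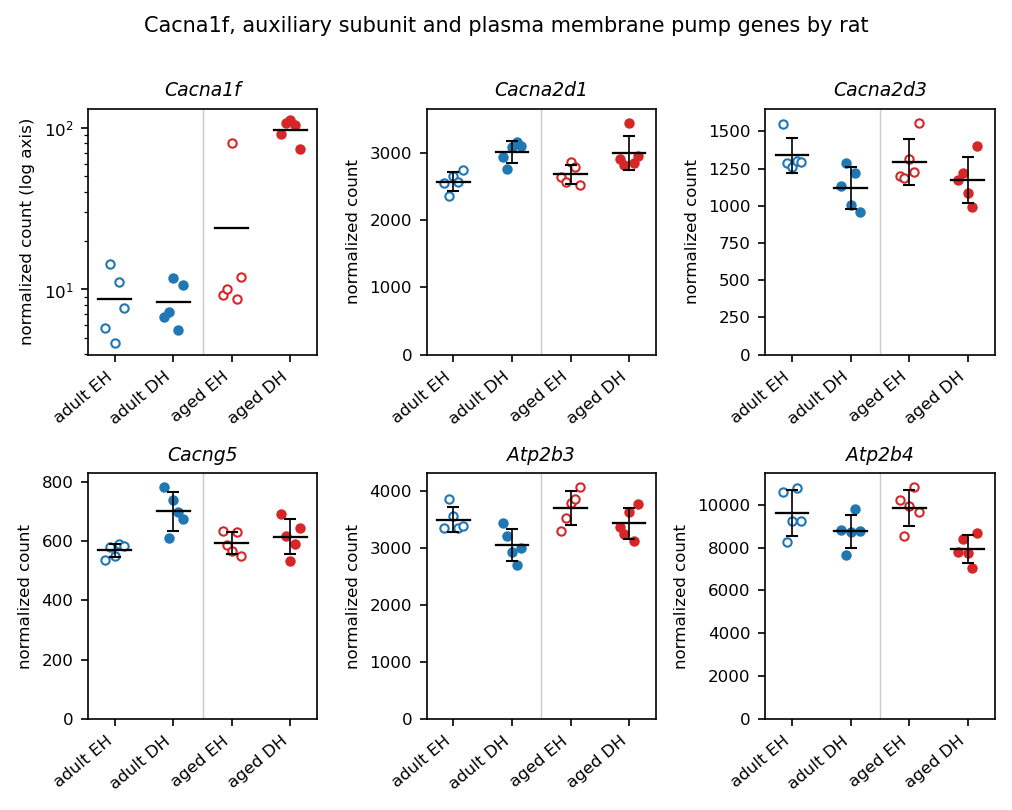
Normalized counts (y axis; log axis for Cacna1f, others from 0) of Cacna1f, 3 auxiliary subunit genes and 2 PMCA pump genes in each rat of the 4 groups (x axis; open points EH, filled points DH). Lines give means and, except for Cacna1f, bars the SD of 5 rats; 1 aged EH rat lies at 80.4 among the aged DH values of Cacna1f, which run from 73.6 to 112.

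All 3 ryanodine receptor genes had negative LFCs in both DH comparisons, but that of Ryr3 in adult DH was only -0.01. It ran from -0.05 to 0.03 when single rats were left out. Over all genes tested, 7980 of 15280 were lower in adult DH and 7831 of 15346 in aged DH. In each comparison 2 of the 3 were DEGs (background 4.99% lower in adult DH and 3.25% in aged DH). Ryr1, best known as the release channel of skeletal muscle and also present in brain, had counts of 224, 246, 285, 228 and 220.0 in adult EH and 191, 199, 178, 165 and 189 in adult DH. In aged rats they were 259, 236, 228, 211 and 201 in EH and 147, 154, 142, 117 and 159 in DH. Every DH rat was under every EH rat at both ages. Ryr1 fell in adult DH (LFC -0.38 ± 0.09 (SE), adjusted p = 0.0115) and, with the lowest LFC of any member, in aged DH (LFC -0.65 ± 0.10 (SE), adjusted p = 0.00194). Both calls remained when any single rat was left out. The summed level of the muscle markers Myh6, Myh7, Acta1 and Ckm was 383 to 465 in adult EH, 337 to 436 in adult DH, 345 to 471 in aged EH and 336 to 460 in aged DH, and none of the 3 that could be tested was a DEG. Myh7 was lower in all 5 aged DH rats (99.99 to 127) than in all 5 aged EH rats (129 to 159), with an LFC of -0.35 (adjusted p = 0.0586), and was -0.21 (adjusted p = 0.399) in adult DH. For Myh6 the LFC was -1.12 (adjusted p = 0.102) in adult DH, with an unadjusted p of 0.0192, and 0.04 (adjusted p = 0.948) in aged DH. For Acta1, which made up most of the sum, it was 0.08 (adjusted p = 0.618) and 0.09 (adjusted p = 0.747). The part of muscle in the lower Ryr1 was not tested. In RefSeq GRCr8 Ryr1 overlaps a protein-coding gene model on the opposite strand, LOC103689966.

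Ryr2, the release channel of heart and the main form of many brain regions, had counts of 2503, 2436, 2602, 2557 and 2311 in adult EH and 2262, 2305, 1969, 2169 and 1917 in adult DH. No adult DH rat reached the adult EH rats, and Ryr2 fell (LFC -0.23 ± 0.05 (SE), adjusted p = 0.0134). In aged rats the counts were 2431, 2235, 2455, 2618 and 2758 in EH and 2305, 2158, 2215, 1991 and 2362 in DH. The aged groups overlapped (LFC -0.18 ± 0.06 (SE), adjusted p = 0.0801), and without aged EH rat 2 Ryr2 was a DEG there too (adjusted p = 0.0341). Ryr3 showed the reverse order of calls. Its counts were 806, 664, 746, 745 and 691 in adult EH and 703, 763, 685, 821 and 668 in adult DH, and the groups overlapped (LFC -0.01 ± 0.07 (SE), adjusted p = 0.967). In aged rats they were 795, 682, 649, 809 and 799.7 in EH and 626, 604, 648, 600.0 and 639 in DH. The aged DH rats lay just under the lowest aged EH rat, and Ryr3 fell (LFC -0.25 ± 0.07 (SE), adjusted p = 0.0326). This call was lost without aged DH rat 1, 2 or 5, or without aged EH rat 1, 5 or 6, with an adjusted p of up to 0.0906. The IP3 receptors Itpr1, Itpr2 and Itpr3 were not DEGs. Their LFCs were -0.20, 0.15 and -0.07 in adult DH, and -0.08, -0.03 and -0.01 in aged DH.

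Among the pumps, the DEGs were PMCA genes, whose products expel calcium across the plasma membrane. Atp2b4 (PMCA4) had counts of 10232, 8544, 9932, 10822 and 9672 in aged EH and 7779.6, 8389, 7750.4, 7044 and 8684 in aged DH. A single aged DH rat lay above the lowest aged EH rat, and Atp2b4 fell (LFC -0.31 ± 0.06 (SE), adjusted p = 0.00869), also without any single rat. In adult rats the counts were 10592, 8247, 9229.9, 10791 and 9246 in EH and 8824, 7663, 8715, 9821 and 8753 in DH. The adult groups overlapped (LFC -0.13 ± 0.07 (SE), adjusted p = 0.268). Atp2b3 (PMCA3) was lower in adult DH, with 2709 to 3441 against 3342 to 3855 in EH (LFC -0.20 ± 0.06 (SE), adjusted p = 0.0431). The call held only without adult DH rat 1 or 2, and the adjusted p reached up to 0.0975 when any other rat was left out. In aged DH its LFC was -0.11 (adjusted p = 0.312). The broadly expressed Atp2b1 and the neuronal Atp2b2 were not DEGs, with LFCs of -0.05 and -0.08 in adult DH and -0.07 and 0.02 in aged DH. Atp2a2, which encodes the SERCA pump that fills the ER store, was higher in all 5 adult DH rats (17719 to 18251) than in all 5 adult EH rats (16963 to 17584). The difference was small, and its LFC of 0.07 (adjusted p = 0.0853) was not past the threshold. The other SERCA gene Atp2a3 and the Golgi pump Atp2c1 were not DEGs, with LFCs of 0.06 and 0.09 in adult DH and -0.06 and 0.02 in aged DH.

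The HCN genes did not move together. Hcn3 was higher in DH at both ages and had the lowest adjusted p of any member. Its counts were 1710.0, 1907, 1915, 1813 and 1805 in adult EH and 2330.4, 2412, 2540.5, 2211 and 2469 in adult DH. In aged rats they were 2016, 2149, 2462, 2102 and 2013 in EH and 2490.0, 2629, 2755, 2563 and 2674 in DH. Every DH rat was above every EH rat of its age, the closest being aged EH rat 4. Hcn3 rose in adult DH (LFC 0.39 ± 0.04 (SE), adjusted p = 6.71e-05) and in aged DH (LFC 0.29 ± 0.05 (SE), adjusted p = 0.00443), and both calls remained without any single rat. Its neighbour Pklr, which overlaps it in RefSeq GRCr8, had 11.5 to 25.1 in aged EH and 12.5 to 24.2 in aged DH, and was not a DEG there. In adult rats Pklr was under the minimum and not tested, with means of 7.87 in EH and 10.9 in DH.

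Hcn2 rose in aged DH, with 2835, 2982, 2913, 2887 and 3090.0 in aged EH and 3118, 3403, 3405, 3196 and 3382 in aged DH. The aged groups did not overlap (LFC 0.17 ± 0.04 (SE), adjusted p = 0.0155), and the call remained without any single rat. In adult rats the counts were 2720.5, 2945, 2608, 2363 and 2516 in EH and 2565, 3087, 2369.8, 2512 and 2618 in DH, with means of 2630.4 ± 219 and 2630.2 ± 271 (SD, n = 5; LFC 0.00 ± 0.07 (SE), adjusted p = 0.989, 95% interval -0.15 to 0.14). Hcn4, the slowest of the family, had counts of 899, 877, 845, 758 and 835 in aged EH and 760.1, 645, 715, 670.1 and 775 in aged DH. The lowest aged EH rat lay just under 2 aged DH rats, and Hcn4 fell (LFC -0.24 ± 0.06 (SE), adjusted p = 0.0323). This call was lost when any of 7 rats was left out (aged DH 2, 3 and 5, aged EH 1, 2, 4 and 6), with an adjusted p of up to 0.0872. In adult rats Hcn4 had 815, 684, 645, 804 and 633 in EH and 749.7, 708, 791, 827 and 801 in DH, and the groups overlapped (LFC 0.12 ± 0.08 (SE), adjusted p = 0.336).

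**Figure D4:**
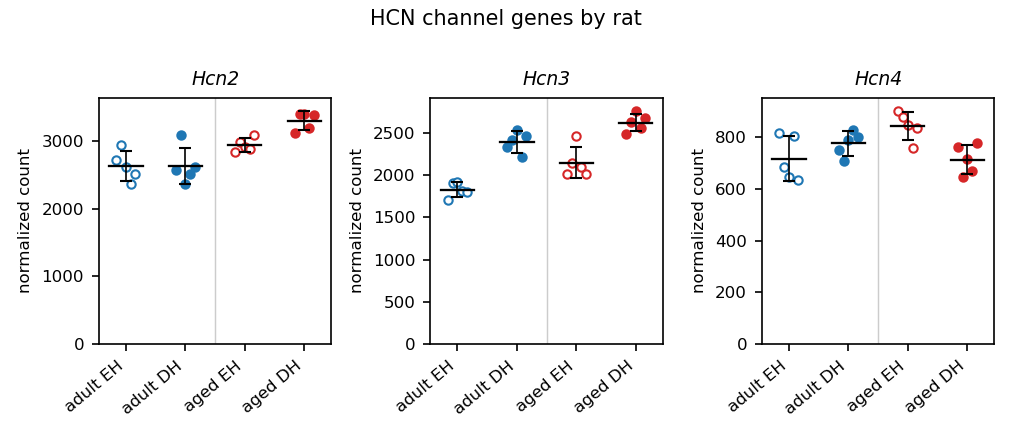
Normalized counts (y axis, from 0) of Hcn2, Hcn3 and Hcn4 in each rat of the 4 groups (x axis; open points EH, filled points DH), with the mean and SD of 5 rats; adult and aged values were scaled in separate tables. Hcn3 is higher in DH at both ages, Hcn2 is higher in all 5 aged DH rats than in all 5 aged EH rats, and Hcn4 runs from 645 to 775 in aged DH and from 758 to 899 in aged EH.

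With ageing the LFCs of Hcn2, Hcn3 and Hcn4 were above 0, but none of these was a DEG. In the table of the ageing comparison Hcn3 had 1782, 1985, 1999.9, 1889.8 and 1881 in adult EH and 2019, 2152, 2463, 2104 and 2026 in aged EH. Every aged rat was above every adult rat (LFC 0.17 ± 0.05 (SE), adjusted p = 0.0805 by limma). The study, which called DEGs with DESeq2, lists Hcn3 as upregulated by ageing. Hcn3 is also among the genes with primers for the study's quantitative RT-PCR checks, whose values are not given here. The LFCs of Hcn4 and Hcn2 were 0.18 (adjusted p = 0.191) and 0.11 (adjusted p = 0.258). The highest LFC with age was that of Cacna1f (LFC 0.79 ± 0.53 (SE), adjusted p = 0.457), with 6.02, 14.9, 4.84, 11.6 and 8.05 in adult EH and 9.23, 10.01, 80.4, 8.71 and 12.0 in aged EH, where only aged EH rat 4 lay above all adult rats. Without that rat the mean of Cacna1f was under the minimum and it was not tested. At the low end were Cacng6 (LFC -0.16 ± 0.28 (SE), adjusted p = 0.812), with 17.0, 22.8, 22.3, 22.2 and 15.1 in adult EH and 11.3, 15.0, 13.6, 21.3 and 32.3 in aged EH, and Ryr1 (LFC -0.14 ± 0.09 (SE), adjusted p = 0.449), with 234, 256, 297, 238 and 229 and 259, 236, 228, 211 and 202. Both pairs of groups overlapped. The fits of ageing with any single rat left out called 0 members.

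Across the 39 members tested at both ages, the adult and aged responses to DH, which share no rats, had the same sign for 26 members, which is 66.7%, against 66.5% of all 15159 genes tested in both. Pearson's r between the LFCs was 0.663 and Spearman's rho 0.597 over the members, against 0.488 and 0.440 over all genes. Genes of a library share its depth and composition, so these are descriptions. The 4 members that were DEGs at both ages, Hcn3, Ryr1, Cacna1h and Cacna1e, kept their direction. The 5 DEGs of adult DH alone were Cacna2d1, Cacng5, Ryr2, Atp2b3 and Cacna2d3, and the 6 of aged DH alone were Cacna1d, Cacna1f, Atp2b4, Ryr3, Hcn2 and Hcn4. The difference between the ages was itself tested over all 20 rats, and 0 of 40 members passed the threshold, as did 0 of all 15326 genes. At an unadjusted p under 0.05 there were 7 of 40 members, against 9.93% of all genes. In this fit of all 20 rats, none of the DEGs of a single age was thus shown to differ between the ages. The lowest LFCs for this difference (aged response less adult response) were those of Hcn4 (LFC -0.36 ± 0.10 (SE), adjusted p = 0.258) and Ryr1 (LFC -0.27 ± 0.13 (SE), adjusted p = 0.503), and the highest after Cacna1f was that of Cacng6 (LFC 0.23 ± 0.35 (SE), adjusted p = 0.877). Cacng6 had 11.3, 15.0, 13.6, 21.3 and 32.1 in aged EH and 16.5, 16.7, 11.9, 17.3 and 15.1 in aged DH, and these groups overlapped. For Cacna1d it was LFC -0.26 ± 0.06 (SE), adjusted p = 0.191. The response was lower in aged than in adult rats for 27 of the 39 members, with a median difference of -0.07, where 7656 of 15159 genes were lower with a median difference of 0.00.

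**Figure D5:**
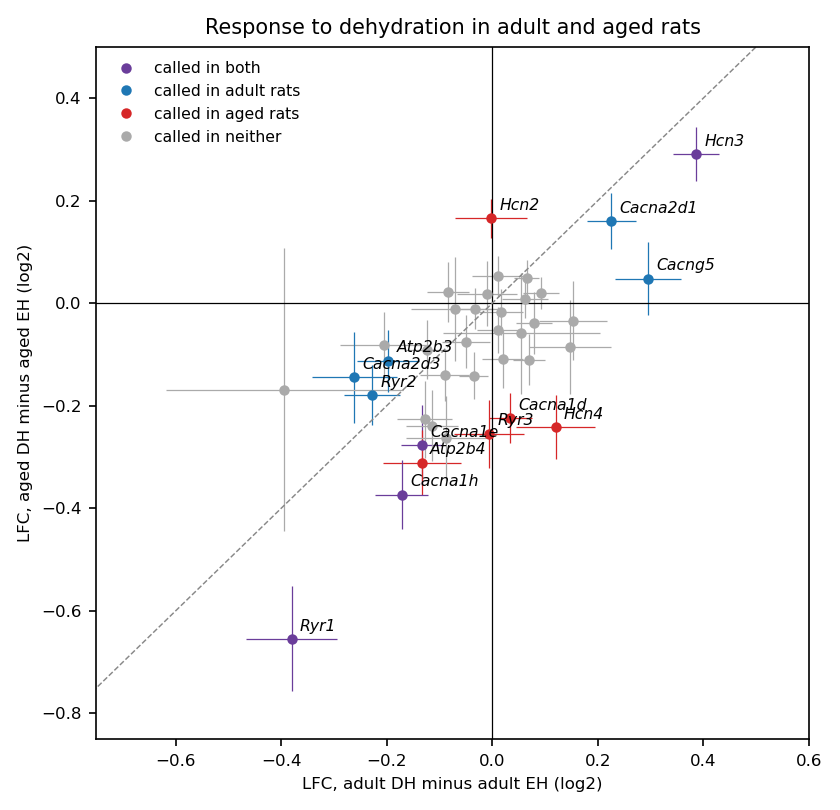
LFC with DH in adult rats (x axis) against aged rats (y axis), both on the log2 scale, for the 39 members tested at both ages, with bars for the SE, colours for DEGs at either or both ages and a dashed line of equal response. Ryr1 lies at -0.38 and -0.65 and Hcn3 at 0.39 and 0.29; Cacna1f, with 2.58 in aged rats, was not tested in adult rats and is not shown.

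Genes that work with these channels and stores were taken from a list of 61, of which 57 could be tested. In adult DH 15 were DEGs (26.3%, background 12.7%), 10 higher and 5 lower, with a median LFC of -0.02. In aged DH 12 were DEGs (21.1%, background 7.29%), 7 higher and 5 lower, with a median LFC of -0.02. With ageing 2 were DEGs (3.51%, background 5.99%), both higher. Of 6 genes of store-operated calcium entry, through which the plasma membrane refills the ER, 3 rose in adult DH and 2 in aged DH. Saraf, a regulator of this entry, rose by 0.39 (adjusted p = 2.52e-06) in adult and 0.34 (adjusted p = 0.00406) in aged DH. The channel gene Orai3 rose by 0.34 (adjusted p = 0.00887) and 0.29 (adjusted p = 0.0468), and Orai1 rose in adult DH by 0.49 (adjusted p = 0.00114), with 0.42 (adjusted p = 0.133) in aged DH. The remaining genes of this list, Orai2 and the sensors Stim1 and Stim2, were DEGs at neither age. Of 11 genes of the ER store, Calr, which encodes the calcium-binding chaperone calreticulin, rose by 0.40 (adjusted p = 3.54e-06) and 0.32 (adjusted p = 0.00175). Canx (calnexin) and Fkbp1a, which binds ryanodine receptors, rose in adult DH by 0.12 (adjusted p = 0.0311) and 0.23 (adjusted p = 0.00659). Jph3, which holds ER and plasma membrane together, fell in adult DH (-0.16, adjusted p = 0.00421).

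Among 14 calcium sensors and buffers, 5 were DEGs in adult DH (background 12.7%) and 4 in aged DH (background 7.29%). The buffer Calb2 (calretinin) rose by 0.23 (adjusted p = 0.0347) in adult and 0.41 (adjusted p = 0.0137) in aged DH, whereas the sensor Hpcal4 fell at both ages (-0.37 (adjusted p = 0.0135) and -0.56 (adjusted p = 0.00376)). In adult DH the sensors Vsnl1, Hpca and Hpcal1 also fell, with LFCs of -0.17 (adjusted p = 0.00155), -0.27 (adjusted p = 0.00718) and -0.15 (adjusted p = 0.0176). In aged DH Pvalb (parvalbumin) rose by 0.37 (adjusted p = 0.0248) and Caln1 fell (-0.37 (adjusted p = 0.0347)). The 3 calmodulin genes were DEGs at neither age, with LFCs from -0.06 to 0.01 in adult DH and from -0.04 to 0.01 in aged DH. Of 13 channel regulators, Stac2, whose product binds L-type channels, rose by 0.33 (adjusted p = 0.012) and 0.24 (adjusted p = 0.0117). Its relative Stac rose with ageing by 0.43 (adjusted p = 0.028) and in adult DH by 0.43 (adjusted p = 0.00441). Rem2, a small GTPase that inhibits voltage-gated calcium channels, rose in adult DH by 0.62 (adjusted p = 0.00216), with 0.26 (adjusted p = 0.281) in aged DH. Cnih2 and Cnih3, partners of AMPA receptors, fell in aged DH (-0.23 (adjusted p = 0.0313) and -0.59 (adjusted p = 0.012)). Of 7 sodium-calcium exchangers, Slc8a2 fell in aged DH (-0.32 (adjusted p = 0.00558)). Of 6 genes of mitochondrial uptake, Smdt1 rose in aged DH by 0.19 (adjusted p = 0.0302).

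Markers of other cells moved with some of these comparisons. Of 6 markers of forebrain glutamatergic neurones, 3 were lower in aged DH, namely Slc17a7 (-1.92 (adjusted p = 0.00224)), Neurod6 (-2.49 (adjusted p = 0.00131)) and Neurod2 (-1.86 (adjusted p = 0.00737)). Their summed level over the 6 was 1676 to 4062 in aged EH and 864 to 1620 in aged DH. In adult rats it was 953 to 3099 in EH and 920 to 2332 in DH, and none of the 6 was a DEG. None of the 6 was at 0 in any rat. In adult EH, Slc17a7 had 1881, 304, 1314, 2391 and 603 in order of replicate number. Counts in adult EH were compared for the 7 members that fell in aged DH. Cacna1h, Cacna1d and Ryr3 had their 2 lowest in the adult EH rats with the lowest Slc17a7 (2 and 6). Cacna1h, Atp2b4 and Hcn4 had their 2 highest in those with the highest Slc17a7 (1 and 5). Ryr1 had its 2 highest counts in adult EH rats 2 and 4, and Cacna1e in rats 4 and 6. In aged EH, Slc17a7 was highest in rats 1 and 2 and lowest in rats 5 and 6 (1609 and 1109). Ryr1 and Hcn4 had their 2 highest and 2 lowest counts in these same aged EH rats. Cacna1h, Cacna1d, Cacna1e, Ryr3 and Atp2b4 did not, and Cacna1h was highest in aged EH rat 6 (1744). The part of these cells in the aged DH results was not tested. With DH the oligodendrocyte marker Mobp rose in aged rats (0.35 (adjusted p = 0.00784), 1 of 5 markers). In adult rats Avp rose (0.48 (adjusted p = 0.0221), 1 of 2 magnocellular markers). Drd1 fell in adult rats (-0.70 (adjusted p = 0.0394)), the only DEG of 4 striatal markers, of which 2 were higher and 2 lower. The suprachiasmatic marker Prok2 rose in adult rats, and in aged rats as well (1.76 (adjusted p = 0.00108)). Vip, the other suprachiasmatic marker tested, had LFCs of -0.35 in adult and -0.20 in aged DH and was not a DEG. With ageing, where no member was a DEG, 3 of 5 oligodendrocyte, 1 of 5 astrocyte, 1 of 3 endothelial and 2 of 3 fibroblast markers were lower and 2 of 5 microglial markers higher in aged EH.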

How the data were processed

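RNA was taken from the SON of 20 rats, 5 in each of 4 groups, with a library for each rat. Paired reads of 75 bases were trimmed by the authors, aligned to Rn6 (STAR) and assigned to genes (featureCounts), with scaling in DESeq2 (version 1.28.1). No version of the aligner or of the counter is stated in the sources used here. The deposited values are a signal, namely counts per gene divided by a size factor for each library, in 3 tables that were scaled separately (ageing, adult DH and aged DH). The tables also hold the authors' own mean, log2 fold change, standard error, test statistic, p-value and adjusted p-value, none of which was used. No per-sample column was left without a sample (0 unused).

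Values were analysed as log2(normalized count + 1) in R 4.3.3 with limma 3.58.1 (trend), separately in each table, and for genes with a mean of at least 10. Fold changes on this scale understate those of low genes. P-values were two-sided and adjusted over all genes tested by the Benjamini-Hochberg method, with a threshold of 0.05. The aged response less the adult response was fitted over all 20 rats from the tables of the DH comparisons. Of the values for adult DH, 100% gave whole reads (within 0.1 of a read), on which edgeR 4.0.16 called 1936 genes and DESeq2 1.42.0 called 2220 as alternatives. Other alternatives were pseudocounts of 0.5 and 10, no filter, a mean of at least 50, TMM, total-count and quantile scaling, the replicate number as a block, and each rat left out in turn. The procedure was tested on simulated data.

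The members, the partner and marker lists and the tests were chosen with earlier results of these data known. Per-rat values were given for the 12 members called in any comparison with the lowest adjusted p-values, and for the 2 highest and 2 lowest members of each comparison where these were not called. Called partners were named and the others counted, except that some results are not reported here. Promoter sequences came from RefSeq GRCr8, another build than that of the counts, so that no coordinates of counted genes are given.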

Additional observations from a re-analysis of the deposited data

Results flagged for a closer look

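Each of the 15 members called in either DH comparison was checked in the 4 groups, 60 sets of 5 rats in all, for a rat whose gap to its nearest neighbour exceeded 0.71 of the group's range, as about 1 in 20 such sets do by chance. This held for 3 sets. Cacna1f had a normalized count of 80.4 in aged EH rat 4, against 8.70 to 11.9 in the other 4 rats. Cacna2d1 had 3449.7 in aged DH rat 3, against 2824 to 2957. Cacna2d3 had 1550.3 in adult EH rat 1, against 1259 to 1298, and without this rat Cacna2d3 was not a DEG in adult DH.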

How the results depend on the processing

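Over all alternatives other than single rats left out, 407 values of named members kept their direction and side of the threshold, 16 lost a call and 2 changed sign. The number of members called in aged DH was 7 to 12 under these, in adult DH 2 to 10 and with ageing 0 or 1. Over all genes, calls under these were 653 to 1150 in aged DH, 987 to 2220 in adult DH and 727 to 1049 with ageing. With no filter, where more genes were tested, 5 members were called in adult DH and 1689 genes in all. The replicate number does not pair the rats (same-numbered deviations correlated at -0.0825 to 0.162, and 1 rat per comparison correlated best with its own number). With this number as a block, 2 members were called in adult DH (Cacna2d1 and Hcn3), 7 in aged DH and 1 with ageing (Hcn3). For the aged response less the adult response 0 members were called. Calls over all genes also went down with the block, from 1934 to 987 in adult DH and from 1119 to 653 in aged DH. With ageing they went from 921 to 824. Hcn2 in adult DH, which was not called, had an LFC of 0.001 by edgeR and 0.019 with the block.

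With single rats left out, 596 values were unchanged in this sense, 50 lost a call, 2 gained one and 11 changed sign. Members called were 5 to 9 in adult DH, 7 to 14 in aged DH and 0 with ageing, without a background from the same fits. For the aged response less the adult response 0 to 1 members were called, the 1 being Cacna1f without aged EH rat 4. That rat had the Cacna1f count that stood apart. In adult DH the LFC of Hcn2 then ran from -0.061 to 0.04 and that of Ryr3 from -0.05 to 0.03, neither of them called. The cause of these shifts was not tested. Calls kept without any single rat were those of Cacna2d1, Cacng5, Hcn3, Ryr1 and Ryr2 in adult DH, and of Atp2b4, Cacna1d, Cacna1f, Cacna1h, Hcn2, Hcn3 and Ryr1 in aged DH. Counts of Cacng6 lay near the minimum, as did those of Cacna1f outside aged DH and aged EH rat 4. The part of depth in these results was not tested.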
